A study of Mus musculus with 2 samples.

Results

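Ribosomal protein genes encode the structural proteins of the cytosolic ribosome. The mouse genes were taken by symbol (Rpl or Rps followed by a number, with Rplp0, Rplp1, Rplp2 and Rpsa), which gave 77 of 21896 protein-coding genes, 31 of the small and 46 of the large subunit. Kinases of the Rps6k family, like-genes and pseudogenes were left out, and so was Fau, which encodes a ribosomal protein under another symbol. Each gene was described by the open chromatin peaks lying within 1 kb of either end of its record in the gene table. Of the 77 genes, 75 had such a gene-end peak, with 95 peaks in all among 14790 gene-end peaks of the table; 96 were present before weak peaks were removed.

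Open chromatin was measured by ATAC-seq, in which a transposase inserts adapters into accessible DNA, in basal cells of mouse skin epidermis. Both libraries came from cells of K14 tracing sorted as α6High, CD34-, Lrig1-, YFP+, GFP+ and RFP+, with 50000 cells in each; K14 is a keratin of the basal layer. The genotype label of the control library is WT and that of the other library is Basal lineage ablation. The age of the mice, the agent and duration of ablation, the alleles behind the reporters and whether animals were pooled are not stated in the labels. Each group is 1 library, which leaves the variation among animals unknown; differences are therefore described without tests or p-values, and the intervals are 95% exact intervals for counting error only.

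Ribosomal proteins are made in nearly every cell in matched amounts, from genes scattered over the genome that share strong, CpG-rich promoters. Their mRNAs start with a run of pyrimidines (the terminal oligopyrimidine or TOP tract), through which mTOR signalling and LARP1 adjust translation without a need for changed transcription. Introns of many of these genes hold small nucleolar RNAs, which guide the modification of ribosomal RNA. Such constitutive promoters can serve as a reference when libraries are put on a common scale.

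Start sites and sequences were available for 57 of the 77 genes, with 67 sites, from RefSeq (GRCm38.p6). The promoters below run from 120 bases before the listed start site to 15 bases from it, 5′ to 3′, so that base 121 is the start site. Capitals mark matches to the 6-base or 7-base cores searched on both strands (TATAAA, the ETS family core CCGGAA, the YY1 core AAGATGG, the Sp1 core GGGCGG and the NRF1 core GCATGCG) and a run of C followed by at least 4 pyrimidines that begins within 5 bases of the start site. The first 4 are the genes with the highest ratio of ablation to control among those with a listed start.
Rps4x, chrX:102189377-102189511, minus strand: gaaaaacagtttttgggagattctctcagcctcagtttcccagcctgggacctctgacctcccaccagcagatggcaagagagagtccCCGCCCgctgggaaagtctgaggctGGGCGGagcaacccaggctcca
Rpl6, chr5:121204381-121204515, plus strand: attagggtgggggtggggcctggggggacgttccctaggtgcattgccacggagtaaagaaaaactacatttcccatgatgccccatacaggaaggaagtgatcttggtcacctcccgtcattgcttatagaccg
Rpl13, chr8:123102230-123102364, plus strand: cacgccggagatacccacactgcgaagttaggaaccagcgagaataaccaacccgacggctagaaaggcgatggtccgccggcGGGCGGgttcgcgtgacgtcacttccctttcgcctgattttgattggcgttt
Rpl12, chr2:32961592-32961726, plus strand: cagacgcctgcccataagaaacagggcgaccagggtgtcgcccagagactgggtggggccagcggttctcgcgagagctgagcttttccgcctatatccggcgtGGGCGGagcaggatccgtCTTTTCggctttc
The next 4 are the genes with the lowest ratio among those with a listed start.
Rps19, chr7:24884472-24884606, plus strand: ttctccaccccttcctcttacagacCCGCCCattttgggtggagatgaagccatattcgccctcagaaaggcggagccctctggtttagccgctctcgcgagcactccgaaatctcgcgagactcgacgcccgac
Rps21, chr2:180257259-180257393, plus strand: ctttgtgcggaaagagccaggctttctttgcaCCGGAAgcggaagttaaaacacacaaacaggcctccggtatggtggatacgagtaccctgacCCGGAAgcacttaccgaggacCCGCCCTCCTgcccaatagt
Rps12, chr10:23787195-23787329, minus strand: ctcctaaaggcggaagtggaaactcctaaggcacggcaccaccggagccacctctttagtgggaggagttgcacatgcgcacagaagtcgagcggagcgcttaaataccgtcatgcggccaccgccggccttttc
Rpl9, chr5:65391417-65391551, minus strand: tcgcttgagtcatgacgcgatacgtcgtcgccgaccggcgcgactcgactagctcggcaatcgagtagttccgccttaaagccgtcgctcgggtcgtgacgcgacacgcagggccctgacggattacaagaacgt
Rpl37 and Rpl15 are shown as genes with some of the strongest signal per kb of peak, and both carry an ETS family core upstream of the start site.
Rpl37, chr15:5116493-5116627, plus strand: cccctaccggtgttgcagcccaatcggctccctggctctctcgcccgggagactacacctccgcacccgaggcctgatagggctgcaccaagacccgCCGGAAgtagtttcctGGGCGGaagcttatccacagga
Rpl15, chr14:18270972-18271106, minus strand: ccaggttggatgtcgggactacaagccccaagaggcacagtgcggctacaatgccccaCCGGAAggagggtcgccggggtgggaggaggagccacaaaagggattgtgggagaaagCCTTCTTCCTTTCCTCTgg

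Over the full 300-base windows, from 250 bases before to 50 bases after the start, the ETS family core was present in 29 of the 57 promoters (50.9%), against 19.1% of 17491 promoters of protein-coding genes. The ETS factor GABPA is known to bind such sites in housekeeping promoters. In 23 of the 29 at least 1 match began upstream of the start site. The start-site pyrimidine run was found in 26 promoters (45.6%, against 18.8%), the YY1 core in 9 (15.8%, against 6.35%) and the Sp1 core in 34 (59.6%, against 46.3%). TATAAA was found in 6 (10.5%, against 13.3%) and the NRF1 core in 4 (7.02%, against 4.49%). The Sp1 core lies in GC-rich DNA; the GC content of the promoters had a median of 58.0%, against 56.3% over all promoters, and the ratio of observed to expected CpG had a median of 0.90, against 0.58. Matches describe letters in these windows and are not shown to be bound sites. No match says only that the letters are not in the window.

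Signal at ribosomal protein genes was strong in both libraries. Summed gene by gene, the 75 genes held 50166 reads in control and 36031 in ablation, with a peak shared between members counted for each. With every peak counted once, their peaks held 0.29% of the nuclear reads in peaks in either library. Their peaks had a median place at the 87.4th percentile of signal among 76147 tested peaks, most of which lie away from gene ends. Above the 90th percentile lay 33 of the 95 (34.7%), near the 30.4% of all gene-end peaks. The median of the mean signal of both libraries was 327 over the member peaks. It was 225 over all gene-end peaks and 66.1 over all tested peaks, in reads divided by the authors' factor for each library. Peaks were broad, with a median length of 973 bp (205 to 2034), against 595 bp over all tested peaks and 924 bp over all gene-end peaks. Among the gene-end peaks, those of 54 genes covered a listed start site, and the centres of those peaks had a median position of -19.5 bp, upstream of it.

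**Figure D1:**
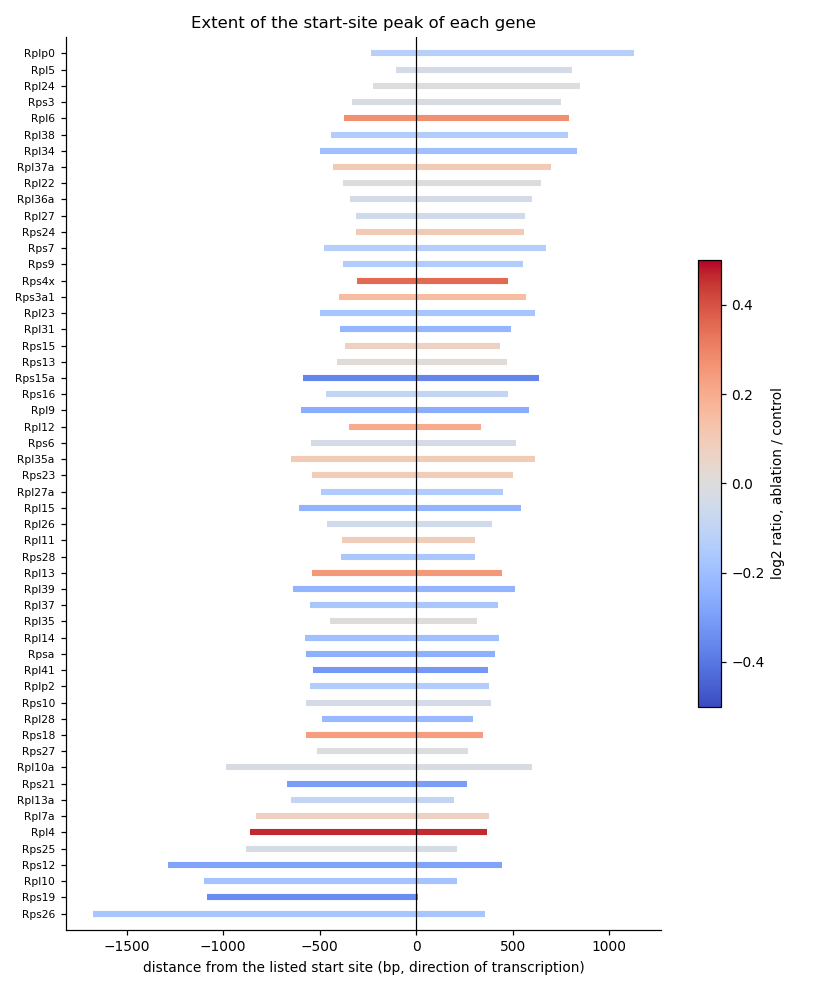
Extent of the peak at the listed start site of each of 54 ribosomal protein genes; the horizontal axis is the distance from the start site in bp in the direction of transcription, and colour gives the log2 ratio of ablation to control. The bars span the start site in every gene shown, and their median length is 980.5 bp.

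Most genes had 1 gene-end peak (58 genes), 14 had 2 and 3 had more, up to 4 at Rpl19. Of the 95 peaks, 25 also lay within 1 kb of an end of another protein-coding gene, at 22 members. At such peaks the signal cannot be assigned to 1 of the genes.

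Signal per kb of peak differed widely among the genes and kept nearly the same order in both libraries. It is given in reads divided by the authors' factor for each library (normalized reads), per kb of peak. In control it ran from 98.4 per kb at Rps4x to 1074 at Rps21, with a median of 342 at Rpl10a. In ablation the highest was 884 at Rpl18 and the median 325 at Rpl34. On the log2 scale the summed signals of the 75 genes in ablation and control had a Pearson correlation of 0.99 and a Spearman correlation of 0.98. Over all 13663 genes with a gene-end peak the Pearson value was 0.98 and the Spearman value 0.99. These correlations are across genes of the same 2 libraries and describe only how far the levels were shared.

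The strongest genes were Rps21, Rpl18, Rpl37, Rpl15 and Rpl13a. The peaks of Rps21, Rpl37 and Rpl15 also lie at an end of Cables2, Card6 and Nkiras1 in that order. A peak of Rpl13a lies at an end of another member, so these signals are not assigned to the named gene alone. Rps21 stood at 1074 normalized reads per kb in control and 870 in ablation, Rpl37 at 896 and 797, and Rpl15 at 795 and 675. Rpl13a, also known for a role in silencing inflammatory mRNAs, stood at 769 and 696. Rpl18 stood at 1038 and 884, from a peak at the outer end of its gene record and not at its listed start. Among the weakest were Rps4x at 98.4 and 126, Rpl19 at 130 and 129, Rpl35a at 131 and 140, and Rpl6 at 134 and 162. All 5 of the strongest were lower in ablation than in control, where 56 of the 75 genes (74.7%) had a log2 ratio at or below 0. Of these 4 weak genes, 3 were higher. Genes were ranked here by control signal, which is also the denominator of the ratio. That choice by itself tilts the strong genes toward lower ratios and the weak genes toward higher ones.

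The gene records place some ends away from the listed start. Which start is in use was not measured. Rps2, whose protein lies at the mRNA entry site, had no peak within 1 kb of either end, but its listed start lies 1942 bp inside the record. A peak on chromosome 17 at 24719570 to 24720514 covers that start; control had 469 normalized reads there and ablation 500, 1.06-fold with an interval that includes 1. The nearest listed start of Rpl18 lies 2604 bp inside, with a peak of 260 and 248, and that of Rpl19 lies 4707 bp inside, with a peak of 193 and 201. The ratio at the inner peak was between 0.953 and 1.06 at these 3 genes. The promoters at the listed starts of these genes are shown here, since the gene ends miss those starts.
Rps2, chr17:24719943-24720077, plus strand: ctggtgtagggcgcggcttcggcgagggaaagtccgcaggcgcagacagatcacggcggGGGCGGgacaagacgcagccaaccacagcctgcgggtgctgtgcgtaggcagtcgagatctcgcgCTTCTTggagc
Rpl18, chr7:45717951-45718085, plus strand: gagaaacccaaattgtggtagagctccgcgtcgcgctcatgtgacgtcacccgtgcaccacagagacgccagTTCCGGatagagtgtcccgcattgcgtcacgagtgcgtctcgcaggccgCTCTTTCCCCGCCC
Rpl19, chr11:98026590-98026724, plus strand: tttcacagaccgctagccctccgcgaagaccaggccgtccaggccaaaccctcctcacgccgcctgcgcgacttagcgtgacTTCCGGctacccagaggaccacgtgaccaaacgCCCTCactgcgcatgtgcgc

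Rpl17 also had no gene-end peak. A peak inside its record on chromosome 18 at 75000028 to 75001082 begins 1050 bp from the end of the record, just past the limit; control had 230 normalized reads there and ablation 235 (1.02-fold, 0.864 to 1.21).

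The study set control against ablation to describe the chromatin of basal cells behind clonal expansion and tissue fluidity. Ribosomal protein genes differed little between the libraries. Their median log2 ratio of ablation to control, computed on summed signal with a pseudocount of 1, was -0.09 (quartiles -0.19 and 0.00), beside -0.08 over all genes with a gene-end peak (quartiles -0.21 and 0.09). Summed gene by gene over the 75 genes, with a peak shared between members counted for each, signal was 0.923-fold of control (0.911 to 0.936). Of the 75 genes 19 (25.3%) had a log2 ratio above 0, where 36.9% of all such genes did.

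At 1.2-fold, 3 genes were higher (13.0% of all genes with a gene-end peak were) and 5 were lower (17.2% of all were). No ribosomal protein gene reached 1.5-fold either way. The share of all genes past 1.5-fold is not given here, so that absence does not by itself set the family apart. The counting interval of the ratio lay above 1 at 1 gene, Rpl23a, below 1 at 22 genes (29.3%) and included 1 at 52. Over all genes with a gene-end peak 9.68% of the intervals lay above 1 and 29.6% below it, so the share below 1 was near the background. Because 1 scaling factor moves all genes together, the count below 1 depends on that factor as well as on the genes. The SD of the log2 ratio across the 75 genes was 0.16, and the root mean square of their counting errors was 0.10. Over all genes the SD was 0.31, but that set reaches to weaker signal (lower quartile 141 normalized reads per kb in control, against 250 for the members). At like signal, between 206 and 460 normalized reads, member peaks had an SD of 0.16 and other gene-end peaks 0.19. A changed mix of cells and a change within each cell cannot be told apart in bulk libraries.

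**Figure D2:**
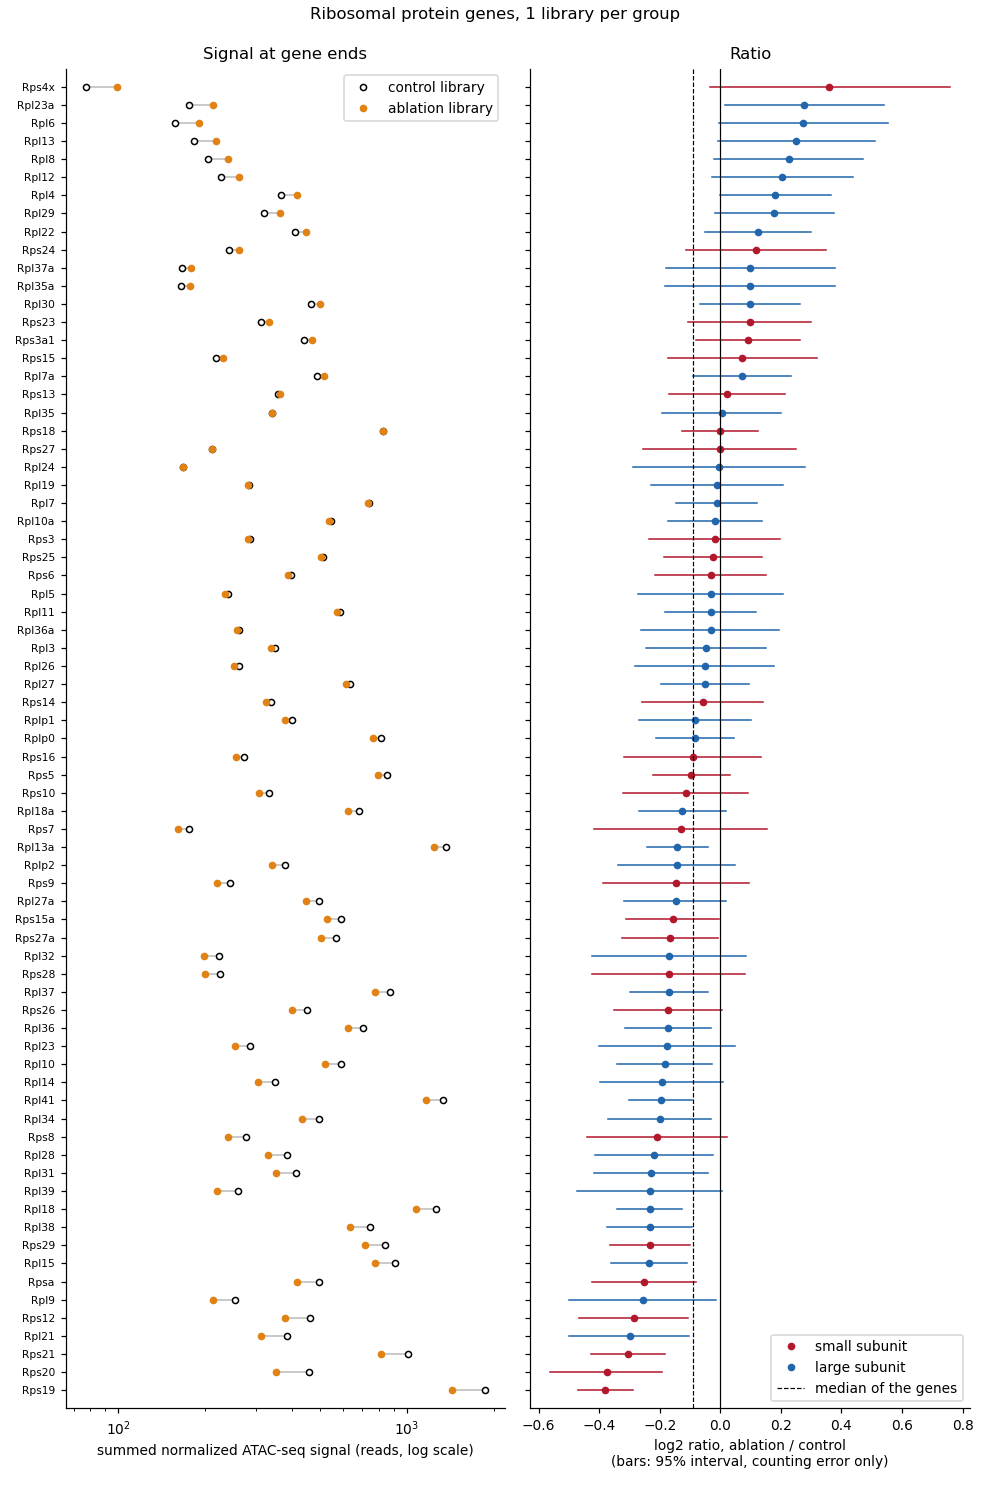
Summed gene-end signal of 73 of the 75 ribosomal protein genes in normalized reads on a log axis (left; open circles control, filled circles ablation) and the log2 ratio of ablation to control with its 95% counting interval (right; red small subunit, blue large subunit). Ratios run from -0.38 at Rps19 to 0.36 at Rps4x around a median of -0.09 over all 75, and 51 of the intervals shown include 0.

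Genes of the small subunit, which decodes mRNA, had a median log2 ratio of -0.12, with 6 of 30 above 0. Genes of the large subunit, which forms peptide bonds, had a median of -0.05, with 13 of 45 above 0. The quartiles of the subunits overlapped, at -0.20 to -0.01 and -0.18 to 0.07.

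The lowest ratios were those of Rps19, Rps20, Rps21, Rpl21, Rps12 and Rpl9. Rps19, a gene mutated in Diamond-Blackfan anaemia, had 1867 normalized reads in control and 1435 in ablation, 0.768-fold (0.722 to 0.818). Both of its peaks were lower. At the start peak (chr7:24883829-24884921) control had 1631 and ablation 1281, and at the other end (chr7:24890322-24891758) 236 and 154, 0.652-fold (0.539 to 0.787). The Rps19 start peak was the strongest of the 95 by mean signal.

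Rps20 had 457 normalized reads in control and 352 in ablation, 0.771-fold (0.678 to 0.876). Rps21 had 1006 and 815, 0.810-fold (0.745 to 0.881), at a peak that also lies at an end of Cables2. Rpl21 had 384 and 312, 0.813-fold (0.708 to 0.932). These 4 genes, with Rps12 at 461 and 378 (0.821-fold, 0.724 to 0.930), were the 5 genes at least 1.2-fold lower. Rpl9 had 253 and 212, 0.838-fold (0.708 to 0.990), at a peak shared with Lias.

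The highest ratios were those of Rps4x, Rpl23a, Rpl6, Rpl13, Rpl8 and Rpl12. Rps4x, the X-linked small-subunit gene, rested on 109 reads in each library, 76.9 and 98.9 normalized reads, 1.29-fold with an interval that includes 1 (0.976 to 1.69). Rpl23a had 175 and 212, 1.21-fold (1.01 to 1.46), and Rpl6 had 157 and 190, 1.21-fold (0.997 to 1.47). With peaks taken up to 2 kb from the gene ends the log2 ratio of Rpl23a was -0.08 in place of 0.28, and that of Rpl13 was -0.01 in place of 0.25. Rps4x, Rpl23a and Rpl6 were the 3 genes at least 1.2-fold higher, and all had low summed signal for this family. Per kb of its 621 bp peak Rpl23a was not weak, at 282 in control and 342 in ablation. The medians of the family were 342 and 325. Rpl13 stood at 183 and 219 (1.19-fold, 0.996 to 1.43), Rpl8 at 205 and 239 (1.17-fold, 0.987 to 1.39) and Rpl12 at 227 and 262 (1.15-fold, 0.981 to 1.36), each with an interval that includes 1. The Rpl12 peak also lies at an end of Lrsam1.

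Of the genes picked for known roles, Rps19 was the lowest of all members, as given above, and the others lay between these extremes. Rps6, whose protein is the classic target of S6 kinase below mTOR, had 396 normalized reads in control and 387 in ablation, 0.978-fold (0.861 to 1.11). Rpl5 and Rpl11, whose proteins bind Mdm2 and so link ribosome assembly to p53, were at 239 and 234 (0.978-fold, 0.829 to 1.15) and at 587 and 574 (0.978-fold, 0.880 to 1.09). The intervals of all 3 include 1. Rpsa, whose product is also described as a laminin receptor, had a lower ratio, at 495 and 416, 0.840-fold (0.745 to 0.947).

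The stalk genes, whose acidic proteins recruit translation factors, lay close together. Rplp0 had 810 normalized reads in control and 765 in ablation, 0.944-fold (0.863 to 1.03). Rplp1 had 399 and 376, 0.944-fold (0.830 to 1.07), and Rplp2 had 378 and 342, 0.906-fold (0.792 to 1.04). Rpl22, a gene with a known role in T cell development, had 411 and 448 over 3 peaks, 1.09-fold (0.966 to 1.23).

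The X chromosome carries 4 members. Rpl10 was at 591 and 521 normalized reads (0.880-fold, 0.790 to 0.980), Rpl39 at 259 and 220 (0.851-fold, 0.721 to 1.00), Rpl36a at 263 and 257 (0.978-fold, 0.835 to 1.14), and Rps4x was the highest of all members. The median log2 ratio of the 4 was -0.11, beside -0.12 over 386 X-linked genes with a gene-end peak and -0.09 over the 71 autosomal members.

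Ratios past 2-fold were found at peaks away from the start sites and at low read counts. Among the 95 peaks, 2 were more than 2-fold higher and 0 more than 2-fold lower; the shares over all tested peaks were 4.48% and 1.88%, and over all gene-end peaks 1.64% and 0.372%. Past 1.5-fold there were 3 higher and 1 lower, where 13.0% and 7.47% of all tested peaks and 6.04% and 2.16% of gene-end peaks were. A peak in the gene body of Rpl22 near its far end, on chromosome 4 at 152332899 to 152333308, had 12 reads in control and 37 in ablation, 8.47 and 33.6 normalized reads (3.96-fold, 2.02 to 8.35). A peak downstream of Rpl19, on chromosome 11 at 98031455 to 98031680, had 27 and 44 reads, 19.1 and 39.9 normalized reads (2.09-fold, 1.27 to 3.52). A further peak past the far end of Rpl22, at 152334211 to 152334568, had 19 and 28 reads (1.89-fold, 1.02 to 3.59). The Rpl22 start peak, by contrast, had 389 normalized reads in each library (1.00-fold, 0.880 to 1.14).

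These 3 peaks are listed in the first of 3 runs into which the row order of the deposited table divides, and that run holds 4 of the 95 member peaks. In it 90.8% of the tested peaks had a ratio above 1, against 18.4% in the next and 47.1% in the last, which held 90 member peaks. What the runs stand for is not stated.

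At a smaller size, 8 member peaks (8.42%) were at least 1.2-fold higher and 11 (11.6%) at least 1.2-fold lower, where 28.0% and 24.7% of all tested peaks and 16.8% and 19.2% of gene-end peaks were. The start peak of Rpl4, shared with Zwilch, was the highest of the start peaks at 111 and 153 normalized reads (1.38-fold, 1.11 to 1.73). That of Rps15a was the lowest, at 378 and 293 (0.776-fold, 0.674 to 0.893). Start peaks had an SD of 0.18 in log2 ratio over 55 peaks with a median mean signal of 338. The peaks called other end lay more than 1 kb from any listed start of their gene. At Rpl18 and Rpl19 peaks of this group lie at the upstream end of the record. The other-end peaks had an SD of 0.61 over 19 peaks, with a median signal of 174, and the wider spread went with weaker signal. The medians of the start and other-end peaks were -0.05 and -0.10.

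The ratio moved with signal among the members as it did among other genes. Across the 75 genes the log2 ratio and log2 mean signal had a Pearson correlation of -0.49 and a Spearman correlation of -0.43, a description over genes that share both libraries. Ranked by mean signal, the 19 weakest genes started at 87.9 normalized reads, and among them the median log2 ratio was 0.00 and 9 lay above 0. Other genes in that signal range had a median of 0.02, with 54.0% above 0. In the 19 strongest (556 to 1651) the median was -0.17 and 0 lay above 0; other genes in that range had a median of -0.18, with 11.9% above 0. The groups of 19 and 18 genes between them had medians of -0.05 and -0.12, beside -0.07 and -0.12 in other genes.

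**Figure D3:**
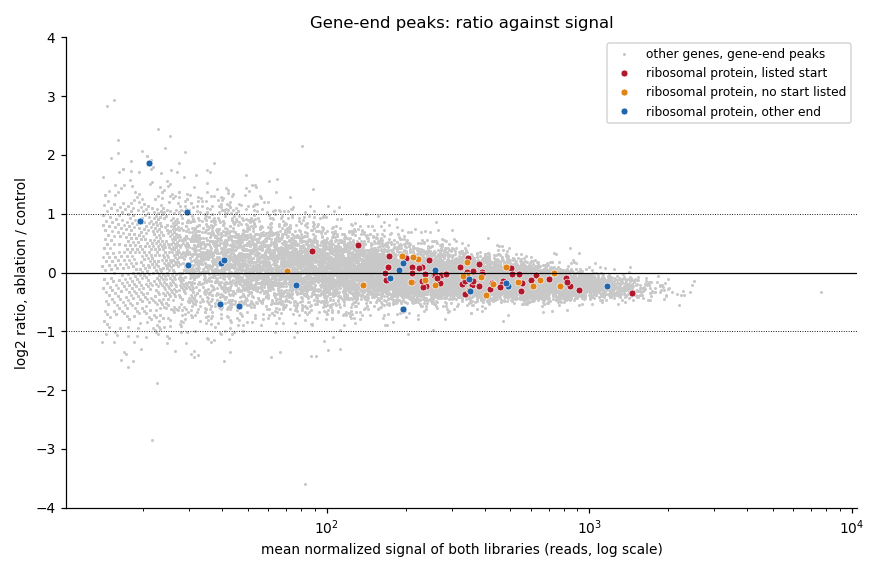
Log2 ratio of ablation to control against the mean normalized signal of both libraries (log axis) for the gene-end peaks of other genes (grey) and the 95 peaks of ribosomal protein genes (red at a listed start, orange where no start was listed, blue at the other end); dotted lines mark 2-fold. The members lie inside the grey cloud, slope downward with it, and pass 2-fold only at 2 weak blue points.

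At like signal the member peaks and other gene-end peaks had close medians. Between 206 and 460 normalized reads, the quartiles of the member peaks, 47 member peaks had a median log2 ratio of -0.08 and an SD of 0.16. In the same range 4430 gene-end peaks of other genes had a median of -0.09 and an SD of 0.19, and 6525 peaks away from gene ends had a median of -0.12 and an SD of 0.26. The median counting error was 0.10 for both gene-end sets. These differences were not tested, since 1 library per group gives no spread to test them against.

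Motifs were searched at the listed starts, while the ratios and signal set beside them here are those of the gene-end peaks. At Rpl18 and Rpl19 the gene ends miss the listed start. Rpl18, with the ETS family core, the Sp1 core and the pyrimidine run, enters at 1038 normalized reads per kb in control and 0.851-fold. The peak at its listed start was 0.953-fold. Members whose promoter held the ETS family core had a median log2 ratio of -0.14 (28 genes) and 407 normalized reads per kb in control, and those without it -0.02 (28 genes) and 269. With the Sp1 core the median was -0.14 and without it -0.03, again with the higher signal per kb (405 against 260). With the start-site pyrimidine run the values were -0.14 and 373, and without it -0.03 and 279. In these 3 splits the genes with the motif had the lower ratio and the stronger signal, whose part in the ratios was not tested. The other motifs did not share that pattern of signal: with the YY1 core (9 genes) the values were -0.09 and 232 against -0.05 and 342 without it, and with TATAAA (5 genes) -0.08 and 279 against -0.05 and 330. With the NRF1 core (4 genes) they were -0.06 and 304, against -0.07 and 314. Members with a snoRNA gene inside their record (28 with a gene-end peak) had a median of -0.13, and the other 47 had -0.08. By the share above 0 the order was the other way, with 9 of the 28 (32.1%) against 10 of the 47 (21.3%).

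Genes that work with the ribosome had medians in the same narrow range. Translation factors and other TOP genes had a median log2 ratio of -0.12 with 3 of 23 above 0, from Eif3h, a subunit of initiation factor 3, at 268 and 185 normalized reads (0.690-fold, 0.579 to 0.820), to the histone chaperone Nap1l1 at 390 and 429 (1.10-fold, 0.972 to 1.25). That list also holds Fau, at 355 and 315 (0.887-fold, 0.771 to 1.02). Ribosome biogenesis genes had a median of -0.09 with 4 of 28 above 0, from Heatr1, needed for ribosomal RNA transcription and processing, at 745 and 570 (0.764-fold, 0.691 to 0.845), to Nop10 at 107 and 124 (1.16-fold, 0.913 to 1.47).

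Genes for regulators of ribosomal protein genes had a median of -0.13 with 4 of 14 above 0. Rptor, the mTOR complex 1 scaffold, was lowest at 143 and 109 normalized reads (0.764-fold, 0.604 to 0.962) and the TATA-binding protein gene Tbp highest at 199 and 230 (1.16-fold, 0.973 to 1.38). Gabpa was at 1109 and 902 (0.814-fold, 0.751 to 0.881) and Mtor at 807 and 685 (0.849-fold, 0.773 to 0.932), while Myc was at 804 and 809 (1.01-fold, 0.921 to 1.10).

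Other constitutive lists served for comparison. Mitochondrial ribosomal proteins, which build the separate ribosome of that organelle, had a median of -0.11 with 22 of 77 above 0, from Mrps16 (0.743-fold) to Mrps2 (1.36-fold). Proteasome genes had a median of -0.09 with 13 of 36 above 0, from Psmc4 (0.826-fold) to Psmd9 (1.30-fold). Housekeeping genes had a median of -0.06 with 6 of 13 above 0, from Actb (0.855-fold, 0.810 to 0.902) to Gusb (1.26-fold, 0.926 to 1.71). Gapdh, often used as a reference, was at 953 and 1161 (1.22-fold, 1.13 to 1.32); it is named here after its value was seen. Tbp is in both the regulator and the housekeeping lists.

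**Figure D4:**
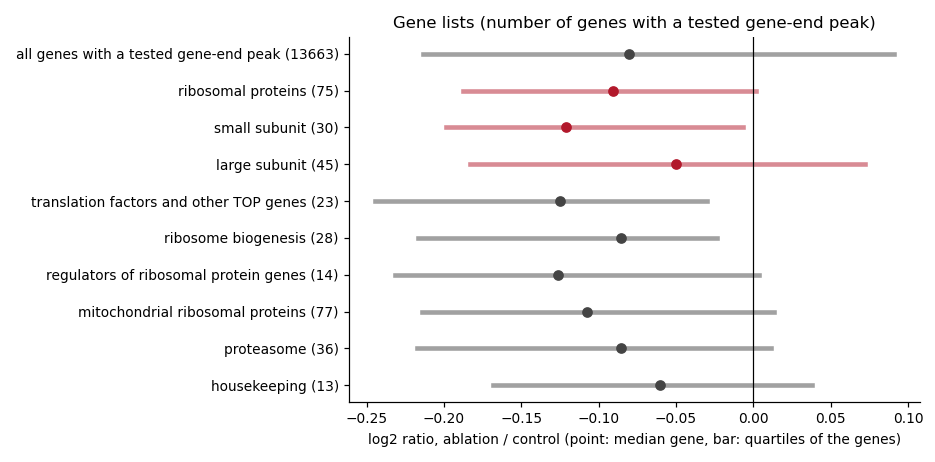
Median log2 ratio of ablation to control (points) and quartiles of the genes (bars) for ribosomal protein genes (red) and other lists (dark), with the number of genes in brackets. All list medians lie between -0.13 and -0.05, beside -0.08 for all genes.

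To set the scale of the libraries by the ribosomal protein genes, their median of -0.09 was subtracted from every log2 ratio. The median log2 ratio of all tested peaks thereby rose from -0.01 to 0.08. On the deposited scale 3412 tested peaks passed 2-fold upward and 1432 downward, so 70.4% of them were higher. With the ribosomal protein genes set to no change the counts were 4343 and 1083 (80.0% higher). Proteasome genes as reference gave 4306 and 1098, mitochondrial ribosomal proteins 4493 and 1016, and housekeeping genes 4043 and 1173. Division by the total over nuclear peaks, which uses no gene list, gave 4384 and 1072, close to the ribosomal protein reference; under it the median of the members was 0.00. The small-subunit genes alone gave 4688 and 970 and the large-subunit genes alone 3843 and 1209.

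Other scalings departed further. Centring on strong gene-end peaks of other genes gave 5428 and 792 and put the members at a median of 0.09. A loess correction, which centres the ratio at every signal level, gave 2330 and 2161 (51.9% higher) with the members at 0.04. Division by the total of the whole table, mitochondrial reads included, gave 1324 and 4372 (23.2% higher) and put the members at -0.43. The direction of the members' median therefore depended on the scaling. A single factor per library moves members and all genes alike, so their distance could not change under such scalings. Only loess and the choices of peaks could move that distance. It was -0.01 on the deposited scale and 0.01 under loess. Among the choices of peaks it ran from -0.02 with the strongest gene-end peak to 0.04 with listed starts only.

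**Figure D5:**
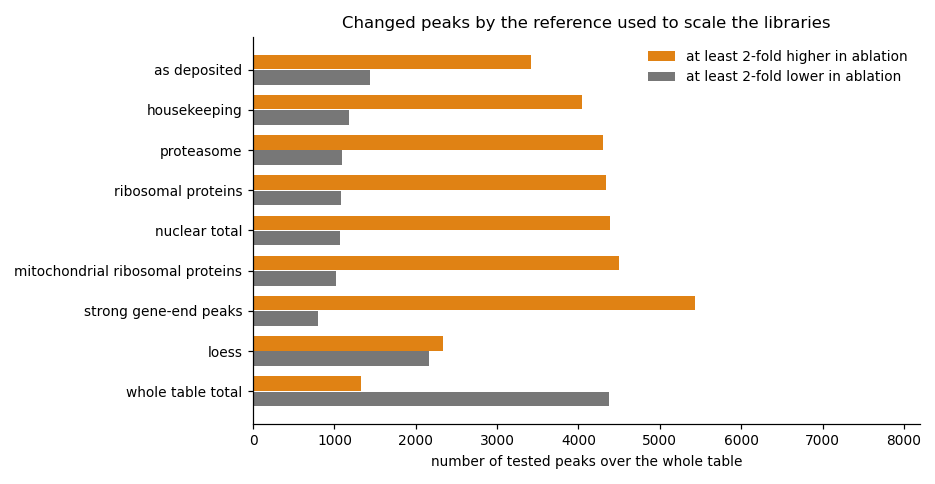
Number of tested peaks at least 2-fold higher (orange) and at least 2-fold lower (grey) in ablation under 9 ways of scaling the libraries, on an axis from 0. Ribosomal protein genes give 4343 and 1083, between the other gene lists, and the whole table total alone turns the balance.

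Reads in nuclear peaks came to 17056996 in control and 12463908 in ablation, with medians of 76 and 62 per peak. Among markers, gene-end peaks were listed for 5 of 6 basal keratinocyte genes (all but Trp63), whose summed signal was 5568 normalized reads in control and 5537 in ablation, and for all 4 suprabasal genes (1046 and 1122). Gene-end peaks were listed for 2 of 5 fibroblast genes (238 and 216, none at Col1a2, Pdgfra and Lum), 2 of 4 immune genes (87.5 and 98.0, none at Ptprc and Cd207), 1 of 3 endothelial genes (29.6 and 41.7, none at Pecam1 and Cdh5) and 3 of 4 melanocyte genes (2018 and 1669, none at Tyr). Pmel alone held 1338 and 1124 of the melanocyte sums. Of the 5 basal genes 2 had a log2 ratio above 0, from Itga6 at 0.761-fold to Krt5 at 1.16-fold. Sharing of marker peaks with neighbouring genes is not given here. The part of the markers in the ratios of the ribosomal protein genes was not tested.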

How the data were processed

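ATAC-seq peaks of 1 control and 1 ablation library were used as the authors deposited them. The submitters' processing notes name mm10, MACS2 2.1.0.20151222, Bowtie2 2.3.4.2, HTSeq, Trimmomatic and Picard, with no settings. The deposited signal per peak is whole reads divided by 1 factor per library, as the steps of its values show (whole within 0.1 of a read), and the factor's origin is not given. The column names of the table carry other replicate numbers than the sample titles, so columns were assigned by group. The table lists 116411 rows for 84594 distinct peaks, which were used once each, and 3 mitochondrial peaks were set aside.

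Peaks with a mean signal under 13.96, the 10th percentile, were removed. The log2 ratio of ablation to control used a pseudocount of 1, and a gene's value was the summed signal of its peaks within 1 kb of either end of its RefSeq record (GRCm38.p6, the assembly behind mm10). Fold values are ratios of signal with exact Clopper-Pearson intervals at 95%, which cover counting error only. PCR duplicates and the factor's own error are not in them. Members were chosen by symbol; members, lists and tests were chosen with earlier results of these data known. Named genes were the 6 highest and 6 lowest ratios, the 5 strongest and 5 weakest per kb, members with a peak past 1.5-fold, X-linked members, members without a gene-end peak, a few with known roles, and the highest and lowest of each other list. A few genes that these rules or lists hold are counted in the summaries and not reported by name here. Start sites added to the gene ends were an alternative chosen after seeing the data. The procedure was tested on simulated data. Values came from pandas 2.3.3 and numpy 2.4.6 under Python 3.11.15, loess from statsmodels 0.14.6, intervals from scipy 1.17.1 and figures from matplotlib 3.10.9.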

Additional observations from a re-analysis of the deposited data

Results flagged for a closer look

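Mitochondrial DNA was outside the peaks used above and held 31.2% of the reads in peaks of the ablation library, against 7.31% in the control library. It was singled out because it is a signal in data that the comparisons did not use and lies above the level in control. Its part in the ratios of the ribosomal protein genes was not tested; under division by the total of the whole table, which includes it, their median log2 ratio was -0.43, and under division by the nuclear total it was 0.00.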

How the results depend on the processing

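The level of the ribosomal protein genes depended on the scaling. Their median log2 ratio was -0.43 under the whole table total, -0.000300 under the nuclear total, 0.0870 when centred on strong gene-end peaks and 0.0398 under loess, so the last 2 turned its direction; it was -0.0501 with listed starts only. Genes above 0 numbered 1, 37, 55 and 43 under those 4 scalings in that order. Member peaks at least 1.2-fold higher numbered 3, 14, 24 and 14, and those at least 1.2-fold lower 71, 5, 3 and 3. With listed starts only these counts were 3 and 5, and with gene ends within 500 bp 7 were lower. The SD across genes was 0.14 under loess and 0.19 within 500 bp. Of the 2 member peaks at least 2-fold higher, 1 passed with a pseudocount of 5, a filter at the 25th percentile, the whole table total or loess, and 0 within 500 bp or with listed starts only. With the ribosomal protein genes as reference, peaks at least 2-fold lower numbered 586 with a pseudocount of 5, 1977 with no filter and 533 with the 25th percentile filter, under which 2384 were higher. Rpl23a turned to -0.0617 under the whole table total and -0.0783 within 2 kb, and Rpl6 to -0.0649 under the whole table total. Rpl13 was at -0.00719 within 2 kb. The other 105 values of summary results stayed within 1.5 times (counts) or within the counting error of the summed signal (medians and SDs). Of 433 values of named genes under the alternatives, 40 changed sign, 34 of them under another scaling and 6 under other choices. Apart from Rpl23a and Rpl6, 48 of the 433 moved by more than their counting error, and 13 of these changed sign. The cause of these shifts was not tested. No paired analysis was possible because each group has 1 library. A count of 0 allows up to 2.12 normalized reads in control and 2.72 in ablation, and peaks of few reads, such as the high ones at Rpl22 and Rpl19, have wide intervals.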
